A study of Mus musculus with 4 samples.

Results

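The genes described here are 44 genes of DNA replication and S phase, chosen as the rows of the deposited count table whose gene name is on a list of origin, replisome, nucleotide supply, cyclin E and E2F/RB genes. The table held 49997 genes, all 44 listed names were found in it, and all 44 passed the filter on low counts, as did 18341 genes in all. RNA was measured in E14 mouse embryonic stem cells (ESCs), a cultured pluripotent line, without feeder cells in the labelled medium. Per the paper's methods, its ESCs carried a tdTomato reporter under the promoter of MERVL, an endogenous retrovirus. All 4 libraries came from cells that carried a lentiviral short hairpin RNA (shRNA) driven by the U6 promoter, were selected with puromycin and were grown with leukemia inhibitory factor and serum replacement. The 2 shScramble libraries carried a scrambled hairpin, and the 2 shYthdf2 libraries carried a hairpin against Ythdf2, which encodes a cytoplasmic reader of m6A, a methyl mark on mRNA. The study used more than 1 hairpin against Ythdf2, and the labels do not say which of them these libraries carried. No gene was deleted, and some Ythdf2 mRNA was left in the knockdown cells.

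Before S phase, the origin recognition complex (ORC), CDC6 and CDT1 load the ring of MCM2 to MCM7 onto DNA. Geminin is an inhibitor of CDT1. At the start of S phase CDC45 and the GINS complex join the ring to form the working helicase, and polymerases then copy both strands with the help of the sliding clamp PCNA and its loader, the RFC complex. The E2F factors drive the transcription of many of these genes, pocket proteins of the RB family restrain E2F, and cyclin E with CDK2 relieves that restraint. Mouse ESCs divide fast, with a short G1 phase and much of the cycle spent in S phase.

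Totals ran from 31113006 to 36422510 reads per library. Values are given as CPM, reads divided by the effective library size that TMM scaling in edgeR assigns and put on one scale for the 4 libraries. Ythdf2 (chr4:132184916-132212256, mm10, minus strand) stood at 93.4 and 87.5 CPM in shScramble replicates 1 and 2 and at 31.7 and 30.2 CPM in shYthdf2 replicates 1 and 2. The knockdown left 34.2% of the control level (log2 fold change −1.55, SE 0.11, adjusted p = 0.00069, edgeR quasi-likelihood test). All 8 ESC markers were detected in every library, with a summed level of 6081 to 6298 CPM in shScramble and 5419 to 5938 CPM in shYthdf2. By edgeR 1 of them, Tdgf1, was lower with an adjusted p of 0.041 (log2 fold change −0.47), against 1.49% of all genes. DESeq2 and limma-voom each called 2 of the 8 lower, against 3.82% of all genes by DESeq2 and 253 of 18341 by limma-voom. At an unadjusted p under 0.05 in edgeR, 3 were lower and 0 higher, against 9.80% and 11.0% of all genes. Both shYthdf2 libraries lay below both shScramble libraries for 4 of the 8, against 25.5% of all genes, and above for 0, against 26.2%. Nanog had a log2 fold change of −0.41 (adjusted p = 0.059) and Dppa5a −0.31 (0.18), and 3 of the 8 had a positive value. The 8 fibroblast markers summed to 17.3 and 18.0 CPM in shScramble and 9.53 and 15.8 CPM in shYthdf2, with Dcn and Twist2 at 0 in all 4 libraries. Most of each sum came from Thy1, at 13.2 and 15.2 CPM in shScramble and 7.77 and 13.6 CPM in shYthdf2. Markers of 2C-like cells, the rare ESCs that resemble the 2-cell embryo, moved with the knockdown. Their 14 genes summed to 50.2 and 78.4 CPM in shScramble and 101 and 262 CPM in shYthdf2. Of them 13 were tested, and 3 were higher at an adjusted p under 0.05 in edgeR, against 2.43% of all genes. All 13 were higher at an unadjusted p under 0.05, against 11.0% of all genes, with a median log2 fold change of 1.42. Their part in the results on the replication genes was not tested.

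To see how the replication program stood in the knockdown cells, each of the 44 genes was compared between shYthdf2 and shScramble. The thymidylate synthase gene Tyms and the pocket protein gene Rbl2 were higher in shYthdf2, by 1.46-fold and 1.57-fold. These were the only 2 of the 44 genes to pass an adjusted p of 0.05 (4.55%, against 2.43% of all genes tested). No member was lower by edgeR, against 1.49% of all genes, and none was lower by DESeq2 or limma-voom or at an unadjusted p under 0.05. DESeq2 called 4 members higher, Pola1, Tyms, Ccne1 and Rbl2 (9.09%, against 5.08% of all genes), and its share of lower calls among all genes was 3.82%. In bulk RNA, a change in the share of cells in S phase and a change in RNA per cell cannot be told apart.

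The fitted changes spread less than those of all genes tested. On the log2 scale the 44 genes changed by a median of −0.03, with quartiles of −0.13 and 0.07, whereas all genes tested had a median of 0.00 and quartiles of −0.25 and 0.25. The size was under 1.2-fold for 38 of the 44 genes (86.4%), compared with 51.2% of all genes. In the 87 further genes of the pathway described below, at a median of 105 CPM, the share was 75.9%. The members were measured more precisely than all genes, with a median level of 109 CPM against 11.7 CPM and a median SE of 0.11 against 0.21. Members and all genes were therefore not compared at a like level. The 95% interval lay within a 2-fold change in either direction for 44 of the 44 genes and for 59.1% of all genes. Intervals were wide enough at most members to hold a change of 1.2-fold, so a miss of the threshold does not show that a gene was unchanged. The summed level of the 44 genes was 7807 and 7583 CPM in shScramble and 7713 and 7645 CPM in shYthdf2, so the groups overlapped.

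The signs were mixed. 20 members had a positive and 24 a negative log2 fold change. At an unadjusted p under 0.05, 5 members were higher (11.4%, against 11.0% of all genes), and 0 were lower, against 9.80% of all genes. Both shYthdf2 libraries lay above both shScramble libraries for 11 members (25%, against 26.2% of all genes), and both lay below for 16 members (36.4%, against 25.5%). Comparing only the libraries numbered 1, the median log2 ratio of the members was −0.05, and between the libraries numbered 2 it was 0.00.

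**Figure D1:**
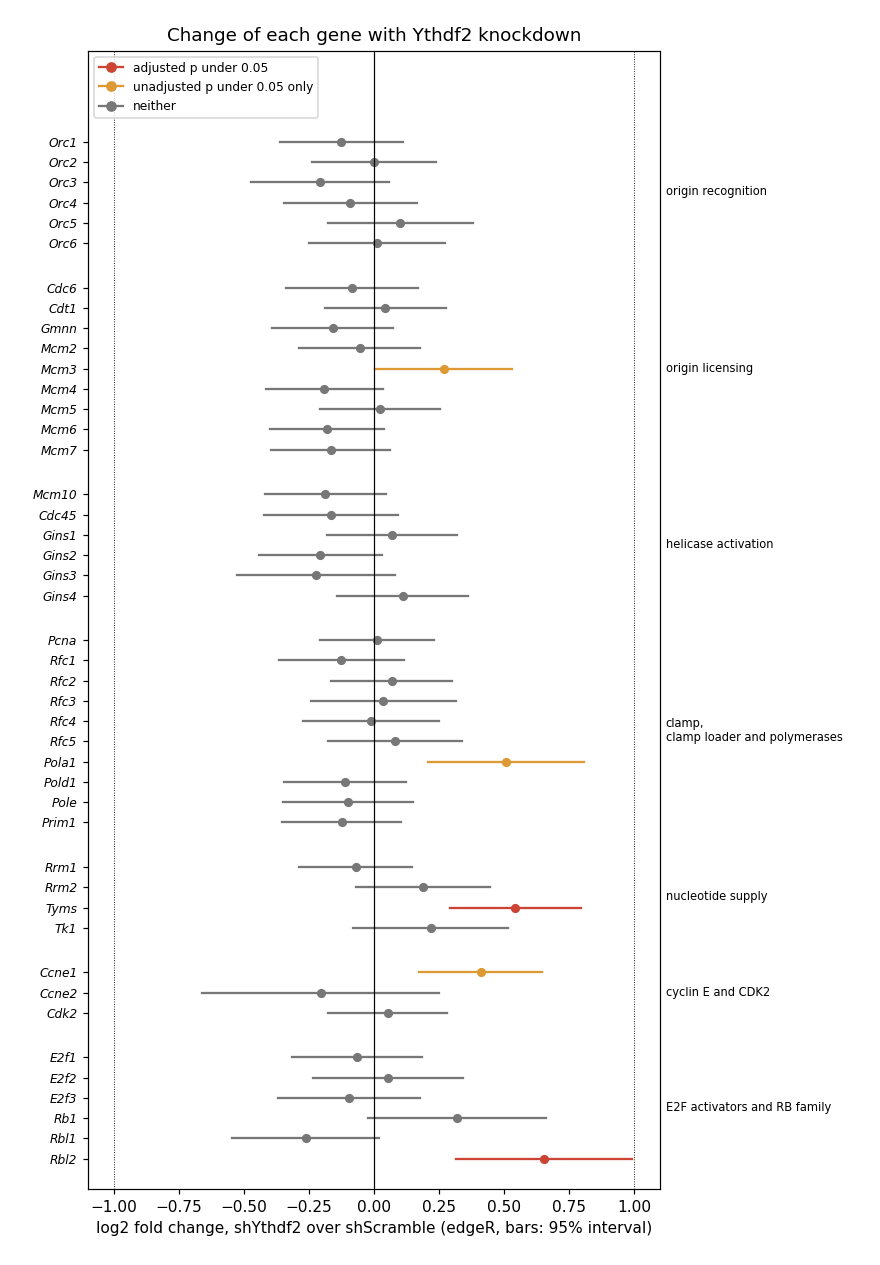
Log2 fold change of each of the 44 genes, shYthdf2 over shScramble, from edgeR, ordered by role; bars are 95% intervals, dotted lines mark a 2-fold change, and colour marks the test result. Tyms and Rbl2 (red) passed an adjusted p of 0.05, Mcm3, Pola1 and Ccne1 (orange) passed only before adjustment, and no interval reached a 2-fold change.

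Levels were compared between genes per length, as CPM per kilobase of exon. The length was that of all annotated exon bases of a gene, and not of the transcripts in use. Pcna was the highest member, at 328 and 327 in shScramble and 335 and 326 in shYthdf2, and no other member reached its range. Next came Mcm2, with a mean of 189 over the 4 libraries, Mcm7 with 184, Mcm3 with 178 and the ribonucleotide reductase gene Rrm2 with 176, and the ranges of these 4 genes overlapped. At the lower end were Rbl2, at 3.25 to 5.50, and Rb1, at 4.21 to 5.98, whose ranges overlapped. Ccne2, the second cyclin E gene, had the lowest mean over its full exon length, 3.80, but another gene shares 52.3% of its exon bases and reads there were not counted. Over the countable bases its mean was 7.98, above that of Rbl2 at 4.88, so Ccne2 was left out of the order. The annotation lists Cdc45 also on an alternate contig and its exon length counts both copies, so it was left out of the order too.

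**Figure D2:**
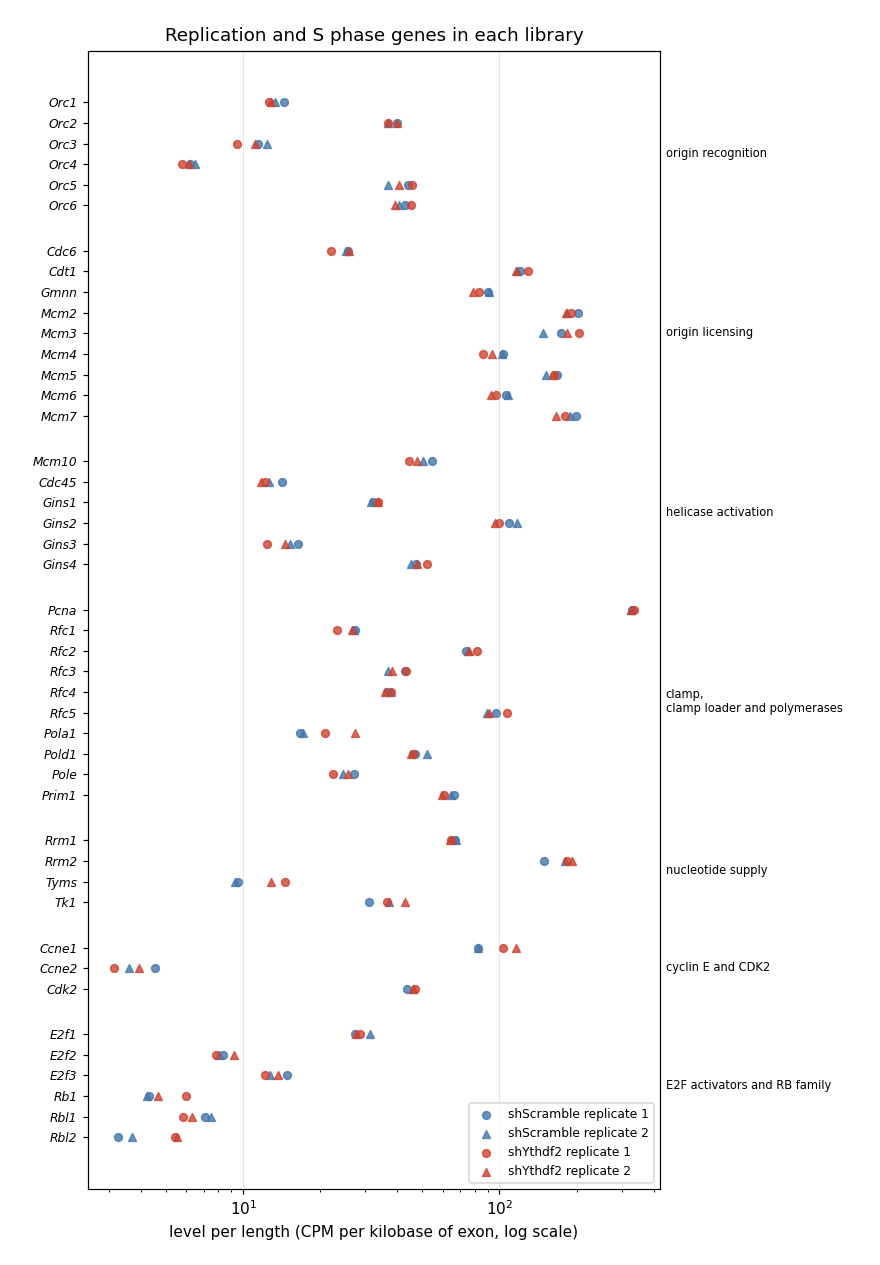
Level per length (CPM per kilobase of exon, log scale) of each of the 44 genes in each of the 4 libraries, ordered by role; blue marks shScramble, red marks shYthdf2, circles are replicate 1 and triangles replicate 2. Pcna sits at the top of the scale near 329 and Ccne2 at the bottom near 3.80, where 52.3% of its exon bases could not be counted. The 4 points of most genes lie close together. Both red points lie above both blue points for 11 genes, Tyms, Rbl2, Ccne1 and Pola1 among them, and below for 16. These shares are 25% and 36.4%, against 26.2% and 25.5% of all genes.

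The 6 subunits of the origin recognition complex, which marks the places where replication can start, had a median of −0.05 for the log2 fold change. Orc5 had the largest positive value, with 90.9 and 75.9 CPM in shScramble and 94.5 and 84.5 CPM in shYthdf2 (log2 fold change 0.10, SE 0.12, adjusted p = 0.70). Orc3 had the largest negative value, with 81.1 and 87.5 CPM against 67.1 and 78.8 CPM (log2 fold change −0.21, SE 0.12, adjusted p = 0.36). The groups overlapped for Orc5 and did not for Orc3, and neither gene passed the test. The other 4 subunits lay between −0.13 for Orc1, the large ATPase subunit, and 0.01 for Orc6. Per length, Orc6 at 41.9 and Orc5 at 41.7 were the highest subunits and Orc4 at 6.16 the lowest. The order leans on the annotated exon length, 1654 bases for Orc6 and 8015 for Orc4. In CPM, Orc6 had means of 69.0 in shScramble and 69.6 in shYthdf2, and Orc4 had 50.9 and 47.8.

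Among the 9 licensing genes, Mcm3 had the largest positive value. It lies at chr1:20802966-20820312 on the minus strand and gave 529 and 448 CPM in shScramble and 622 and 555 CPM in shYthdf2. Both shYthdf2 libraries were higher than both controls, though shScramble replicate 1 and shYthdf2 replicate 2 lay close together. The means were 489 ± 57.4 and 589 ± 47.8 CPM (SD, n = 2 each), for a log2 fold change of 0.27 (SE 0.12, 95% interval 0.01 to 0.53). The unadjusted p was 0.046 and the adjusted p 0.23 in edgeR, so Mcm3 did not pass over all genes. Its value moved with single libraries, from a log2 fold change of 0.15 without shScramble replicate 2 (adjusted p = 0.81) to 0.39 without shScramble replicate 1 (0.21), and it passed under 2 of 13 alternatives, with an adjusted p of 0.016 without shYthdf2 replicate 2 as the lowest.

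The other 5 subunits of the ring did not share this sign throughout. Mcm4 had the largest negative value of the class, 372 and 367 CPM in shScramble and 311 and 336 CPM in shYthdf2 (log2 fold change −0.19, SE 0.10, adjusted p = 0.32). Both knockdown libraries were below both controls for Mcm4, as they were for Mcm6 (log2 fold change −0.18) and Mcm7 (−0.17). Mcm2 at −0.05 and Mcm5 at 0.02 had overlapping groups. The 6 ring genes summed to 3274 and 3042 CPM in shScramble and 3144 and 3004 CPM in shYthdf2, ranges that overlap. Per length they ran from 96.5 for Mcm4 to 189 for Mcm2.

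The loading factors had values near 0. Cdc6, which recruits the ring to ORC, had a log2 fold change of −0.08, and Cdt1, its partner, had 0.04, with overlapping groups for both. Gmnn, the gene of the CDT1 inhibitor geminin, gave 104 and 105 CPM in shScramble and 96.1 and 91.1 CPM in shYthdf2 (log2 fold change −0.16, adjusted p = 0.43). The groups did not overlap for Gmnn, and the difference did not pass the test.

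The helicase activation genes had the lowest class median, −0.18 over 6 genes. Mcm10 and Cdc45, both needed to turn the loaded ring into an active helicase, had log2 fold changes of −0.19 and −0.17, with both knockdown libraries below both controls. The 4 GINS genes split. Gins3 was at 39.4 and 36.6 CPM in shScramble and at 29.9 and 35.2 CPM in shYthdf2 (log2 fold change −0.22, SE 0.14, adjusted p = 0.39). Gins4 was at 64.6 and 61.5 CPM against 71.3 and 64.8 CPM (log2 fold change 0.11, SE 0.11, adjusted p = 0.63). Gins2 lay near Gins3, at −0.21, and Gins1 near Gins4, at 0.07. The groups were separate for all 4 GINS genes, downward for Gins2 and Gins3 and upward for Gins1 and Gins4, yet none passed an unadjusted p of 0.05. Of all genes tested, 26.2% were separate upward and 25.5% downward. A same-strand gene, Gm20550, shares 24.5% of the exon bases of Gins1, and reads over both genes were not counted. The same holds for Gins2, where Gse1 on the opposite strand covers 11.4% of the exon bases.

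Of the clamp, clamp loader and polymerase genes, Pola1 had the largest positive value. It encodes the catalytic subunit of the polymerase that, with primase, starts each new strand, and lies at chrX:93304766-93632387 on the minus strand. Its level was 99.4 and 101 CPM in shScramble and 124 and 162 CPM in shYthdf2. Both knockdown libraries were above the controls, and they lay farther from each other than the controls did. The means were 100.3 ± 1.37 and 143 ± 27.0 CPM (SD, n = 2 each), for a log2 fold change of 0.51 (SE 0.13, 95% interval 0.21 to 0.81). The edgeR unadjusted p was 0.0036 and the adjusted p 0.068, so Pola1 missed the threshold. Without shYthdf2 replicate 2 its log2 fold change was 0.30 with an adjusted p of 0.11, and without shYthdf2 replicate 1 it was 0.69 with an adjusted p of 1.5e-05, the ends of the range over all alternatives.

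The other polymerase genes and the clamp had values nearer 0, and none passed. Prim1, the catalytic primase subunit, was at 102 and 99.5 CPM in shScramble and 93.4 and 91.5 CPM in shYthdf2 (log2 fold change −0.12, adjusted p = 0.55). Pold1 and Pole, the catalytic subunits of the lagging and leading strand polymerases, had log2 fold changes of −0.11 and −0.10. Pcna itself was at 413 and 412 CPM in shScramble and at 422 and 410 CPM in shYthdf2 (log2 fold change 0.01, 95% interval −0.21 to 0.23, adjusted p = 0.96). A pseudogene shares 4.35% of the 150-base stretches of Pcna, and reads that could come from either were not counted.

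For the 5 clamp loader genes the median was 0.04 on the log2 scale. Rfc1, the large subunit, had the largest negative value of its class, with 210 and 209 CPM in shScramble and 179 and 205 CPM in shYthdf2 (log2 fold change −0.13, SE 0.11, adjusted p = 0.56). The knockdown libraries were both lower, but shYthdf2 replicate 2 was near the controls. The small subunits Rfc2 to Rfc5 lay between −0.01 and 0.08. Eif4a2 on the opposite strand covers 13.2% of the exon bases of Rfc4, and reads over both genes were not counted.

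Nucleotide supply held the member with the lowest adjusted p. Tyms makes dTMP, the building block found in DNA and not in RNA, and lies at chr5:30038546-30073645 on the minus strand. Its counts were 2344 and 2001 reads in shScramble and 3399 and 3152 reads in shYthdf2, or 65.0 and 63.5 CPM against 99.3 and 88.0 CPM. Both knockdown libraries were well above both controls. The means were 64.2 ± 1.11 and 93.7 ± 8.03 CPM (SD, n = 2 each), and the log2 fold change was 0.54 (SE 0.11, 95% interval 0.29 to 0.80, adjusted p = 0.032). Tyms passed the threshold under 12 of 13 alternative settings. It missed it without shScramble replicate 2, where the adjusted p was 0.065, the highest of a range that began at 5.2e-05, and the log2 fold change was 0.53.

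The other 3 genes of this class did not pass. Rrm2, the ribonucleotide reductase subunit whose level follows S phase, gave 326 and 392 CPM in shScramble and 399 and 419 CPM in shYthdf2 (log2 fold change 0.19, adjusted p = 0.40). Tk1, thymidine kinase, which makes dTMP by salvage, gave 54.3 and 64.6 CPM against 63.3 and 74.9 CPM (log2 fold change 0.22, adjusted p = 0.39). The groups overlapped for Tk1, and for Rrm2 shScramble replicate 2 lay next to shYthdf2 replicate 1. Afmid on the opposite strand covers 18.6% of the exon bases of Tk1, and reads over both genes were not counted. Rrm1, the large reductase subunit, had the only negative value of the class, with 268 and 271 CPM in shScramble and 258 and 256 CPM in shYthdf2 (log2 fold change −0.07, adjusted p = 0.74).

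Of the 2 cyclin E genes, Ccne1 was the higher per length, at a mean of 95.9 CPM per kilobase against 3.80 for Ccne2, or 7.98 over its countable bases. Ccne1 (chr7:38097984-38107490, minus strand) stood at 161 CPM in both shScramble libraries and at 202 and 226 CPM in shYthdf2. The controls nearly coincided and both knockdown libraries were above them. The means were 161 ± 0.595 and 214 ± 17.5 CPM (SD, n = 2 each), for a log2 fold change of 0.41 (SE 0.11, 95% interval 0.17 to 0.65, unadjusted p = 0.0032, adjusted p = 0.064). Ccne1 passed under 4 of 13 alternatives, among them DESeq2 and the fit without shYthdf2 replicate 1, with adjusted p from 0.0012 to 0.22. Ccne2 gave 15.1 and 11.9 CPM in shScramble and 10.4 and 13.0 CPM in shYthdf2, with overlapping groups (log2 fold change −0.21, SE 0.20, adjusted p = 0.62). Exons of Ints8 on the opposite strand cover 52.3% of the exon bases of Ccne2, and the counting used no strand, so reads over both genes were left out. The log2 fold change of Ints8 itself was −0.35 (adjusted p = 0.14). Cdk2, the kinase partner of both cyclins, had a log2 fold change of 0.05.

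Among the E2F and RB family genes the pocket proteins differed in sign. Rbl2, which encodes p130, the pocket protein that binds E2F in resting cells, lies at chr8:91070057-91123844 on the plus strand. It gave 577 and 574 reads in shScramble and 914 and 971 reads in shYthdf2, or 16.0 and 18.2 CPM against 26.7 and 27.1 CPM. The groups were well apart and the knockdown libraries were close to each other. The means were 17.1 ± 1.55 and 26.9 ± 0.278 CPM (SD, n = 2 each), and the log2 fold change was 0.65 (SE 0.15, 95% interval 0.32 to 0.99, adjusted p = 0.045). Rbl2 passed under 10 of 13 alternatives. It missed the threshold without shScramble replicate 1, where the adjusted p was 0.12 and the log2 fold change 0.57, and with upper quartile scaling (adjusted p = 0.058) or unscaled library totals (0.053). Over all alternatives its adjusted p ran from 0.00021 to 0.12. Aktip on the opposite strand covers 8.49% of the exon bases of Rbl2, and its own log2 fold change was −0.03 (adjusted p = 0.93).

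Rbl1, which encodes p107, the relative of p130 found in cycling cells, had the lowest log2 fold change of all 44 genes. It gave 39.2 and 41.5 CPM in shScramble and 32.3 and 34.9 CPM in shYthdf2 (log2 fold change −0.26, SE 0.13, 95% interval −0.54 to 0.02, adjusted p = 0.27). Rb1 gave 27.7 and 27.0 CPM in shScramble and 38.4 and 29.9 CPM in shYthdf2 (log2 fold change 0.32, SE 0.15, adjusted p = 0.27). Without shYthdf2 replicate 1 the log2 fold change of Rb1 was 0.13 (adjusted p = 0.83), and without shYthdf2 replicate 2 it was 0.49 (0.051). The groups were separate for both genes, downward for Rbl1 and upward for Rb1, and neither passed. The activating factors E2f1, E2f2 and E2f3 had log2 fold changes of −0.07, 0.05 and −0.10, with overlapping groups in all 3 cases.

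**Figure D3:**
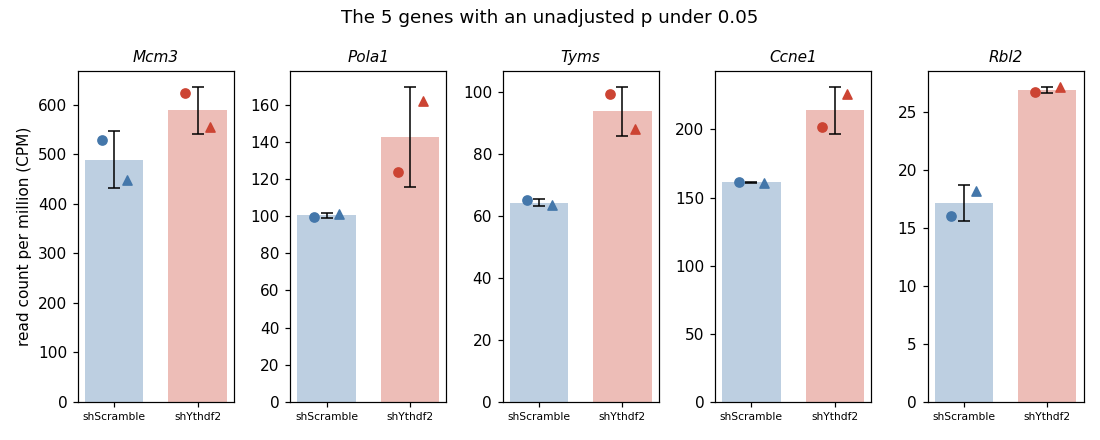
Level in CPM of the 5 genes with an unadjusted p under 0.05, in each library; bars show the mean of 2 libraries from a zero baseline, error bars the SD, circles replicate 1 and triangles replicate 2. Both shYthdf2 points lie above both shScramble points in each panel, and the shYthdf2 points for Pola1 were at 124 and 162 CPM.

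E2F binds near the start sites of many S phase genes, so the promoters were read for the letters of its consensus. The windows were the RefSeq promoters of GRCm38.p6, 250 bases before to 50 bases after each start, and 35 of the 44 members had an entry. Rfc2, Gins1, Pole, Gins4, Gins2, Rb1, Mcm4, Ccne2 and Gmnn had none. The motifs searched were TTTGGCGC, TTTCCCGC, TTTGCCGC and TTTCGCGC, on both strands. At least 1 of them lay in the promoters of 16 of the 35 members (45.7%), against 2.61% of the 27025 genes with an entry, 4.33% of the tested genes with an entry, and 15 of 73 further genes of the pathway (20.5%). A match is a description of the letters and not a bound site. Only these exact letters in these windows were searched, so a promoter without a match is not shown to lack E2F sites.

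The sites are shown for the 5 genes that hold one among those described in full above, as 30 bases read 5′ to 3′ on the strand of the gene, with the motif or its reverse complement in capitals. Mcm3 holds 2 of them in stretches that overlap, both past its start site.
Mcm3, chr1:20820275-20820304, minus strand: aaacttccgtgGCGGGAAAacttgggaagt
Mcm3, chr1:20820263-20820292, minus strand: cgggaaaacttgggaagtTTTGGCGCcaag
Pola1, chrX:93632275-93632304, minus strand: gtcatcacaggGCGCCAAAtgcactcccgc
Orc3, chr4:34614965-34614994, minus strand: ccatgcctcccTTTCCCGCacgccccgcct
Gins3, chr8:95633507-95633536, plus strand: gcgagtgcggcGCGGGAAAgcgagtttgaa
Rbl1, chr2:157204534-157204563, minus strand: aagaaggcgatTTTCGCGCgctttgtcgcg

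The promoters of Mcm5 and Mcm6 each hold a pair of motifs that share bases, a TTTCGCGC and a TTTGGCGC on opposite strands. The capitals mark the first of each pair.
Mcm5, chr8:75109345-75109374, plus strand: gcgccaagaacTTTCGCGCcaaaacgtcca
Mcm6, chr1:128359797-128359826, minus strand: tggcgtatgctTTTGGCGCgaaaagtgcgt

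The 16 promoters held 22 matches, 14 of them within 100 bases of the start site, and 15 of the 22 were centred before it. TTTCCCGC was found in 9 members, TTTGGCGC in 6, TTTCGCGC in 6 and TTTGCCGC in 0. The 16 members with a match had a median log2 fold change of −0.09, and 7 of them were positive. The 19 members with an entry and no match had a median of 0.00, and 9 were positive. Tyms, Rbl2 and Ccne1 had an entry without these letters, whereas Mcm3 and Pola1 had a match, so the 5 genes with an unadjusted p under 0.05 fell on both sides.

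**Figure D4:**
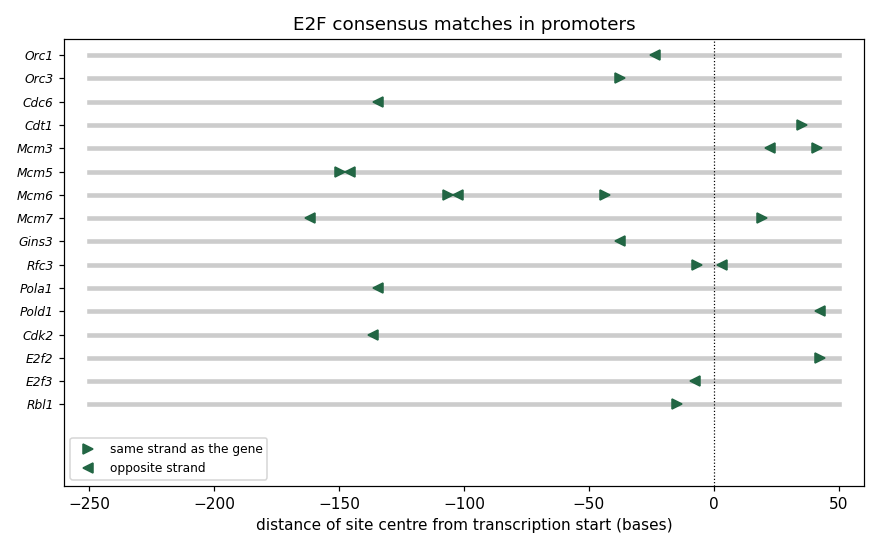
Position of each E2F consensus match in the promoters of the 16 members that hold one, as the distance in bases of the centre of the match from the start site; grey bars are the searched windows, and arrowheads give the strand of the match relative to the gene. First bases ran from −165 in Mcm7 to 39 in E2f2 and Pold1, and 14 of 22 matches lay within 100 bases of the start.

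The rest of the pathway was read from 3 further lists of 87 genes, all of which were tested. Of 37 other replication factors, 0 were higher and 0 lower at an adjusted p under 0.05 in edgeR, DESeq2 or limma-voom. Of all genes, edgeR called 2.43% higher and 1.49% lower, DESeq2 called 5.08% and 3.82%, and limma-voom called 368 and 253 of 18341. With shares this small, a count of 0 in a short list is not read as a result. The median log2 fold change of the 37 was −0.08. At an unadjusted p under 0.05, 2 were higher (Fen1 and Ticrr) and 4 lower (Pole2, Top1, Wdhd1 and Donson), which is 5.41% and 10.8% against 11.0% and 9.80% of all genes. Of 20 other nucleotide synthesis genes, 0 passed in either direction by the same 3 tools, against the same shares of all genes. Their median was −0.04. Before adjustment 1 was higher (Nme1) and 3 lower, among them Shmt1 and Mthfd2, which is 5.00% and 15.0% against 11.0% and 9.80% of all genes. The genes of these lists named here before adjustment were picked after their values were seen.

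Of 30 other E2F, RB and S phase control genes, 1 was higher and 0 were lower by edgeR (3.33% higher, against 2.43% higher and 1.49% lower of all genes). Before adjustment 7 were higher and 5 lower (23.3% and 16.7%, against 11.0% and 9.80%), and DESeq2 called 4 higher and 2 lower (13.3% and 6.67%, against 5.08% and 3.82%). The gene that passed was Ccnd1 (chr7:144929931-144939831), which encodes cyclin D1, the partner of CDK4 and CDK6 in phosphorylating the RB family. It gave 163 and 130 CPM in shScramble and 266 and 235 CPM in shYthdf2. Both knockdown libraries were far above both controls, with means of 146 ± 22.9 and 250.2 ± 22.0 CPM (SD, n = 2 each) and a log2 fold change of 0.77 (SE 0.13, adjusted p = 0.016). Ccnd1 passed under 13 of 13 alternatives.

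**Figure D5:**
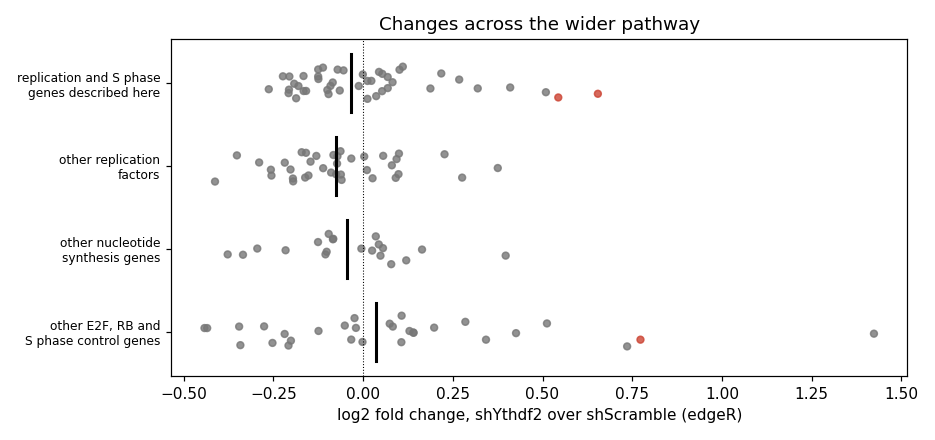
Log2 fold change, shYthdf2 over shScramble, of the 44 genes described here and of the 87 genes of 3 further lists; each point is a gene, the black line is the median of its list, and red marks an adjusted p under 0.05. Medians lie between −0.08 and 0.04, and Tyms, Rbl2 and Ccnd1 are the red points.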

How the data were processed

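The authors deposited raw read counts per gene for the 4 libraries. Per the file headers they were made with featureCounts 2.0.3 over RefSeq exons of mm10, with reads and not pairs counted, no strand setting, and reads of several places or genes left out. The submitters' notes name fastp 0.19.4, HISAT2 2.2.1 and DESeq2 1.40.2. RNA was selected for poly(A) and libraries were stranded by dUTP. The study's methods call replicates biological. Both reads of a pair were counted, so counts overstate independent molecules.

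Here, counts were tested with the edgeR 4.0.16 quasi-likelihood F test (R 4.3.3, two-sided), TMM scaling, the filterByExpr filter (minimum count 10, minimum total 15) and group as the one term; p-values were adjusted by Benjamini-Hochberg across the 18341 genes kept. The 95% intervals used the fit's residual and prior degrees of freedom. DESeq2 1.42.0 and limma-voom (limma 3.58.1), other scalings and filters, halved counts, a replicate block and leaving out each library were alternatives. The code was tested on simulated data. An exact permutation test of 2 against 2 cannot go below p = 0.333. The biological coefficient of variation was 15.8%.

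Members and lists were chosen with earlier results of these data known, and the lists come from general knowledge. Named genes were Ythdf2, members with an adjusted or unadjusted p under 0.05, the largest rise and fall by fitted log2 fold change in each role class, and the highest and lowest members per length; other members appear by range or within a complex, and of the wider lists those with an adjusted p under 0.05. Genes behind counts of 5 or fewer in those lists and single cell type markers, named besides, fall outside this rule. Exon overlaps came from the deposited coordinates, and shared stretches from GENCODE vM21 transcripts. One item of the wider lists is not reported here.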

Additional observations from a re-analysis of the deposited data

How the results depend on the processing

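With 2 libraries a group, precision rests on spread shared across genes, and the cause of each shift below was not tested. Members higher numbered 2 in the reported test, 1 with upper quartile scaling or library totals, 4 with no filter or DESeq2, 0 by the study's criteria in DESeq2 and 1 to 4 leaving out 1 library; members lower stayed at 0. Of all genes, 445 were higher and 273 lower in the reported test, against 1095 and 843 with no filter, 800 and 602 by DESeq2, and 534 to 1175 higher and 300 to 1113 lower without 1 library. Without shScramble replicate 1, 692 were higher and 592 lower, without shYthdf2 replicate 1, 522 were lower, and without shYthdf2 replicate 2 both counts were at their highest. The replicate numbers carry no shared batch in the labels, and same-numbered deviations correlated at 0.23, over 2 pairs only. With a replicate block in the fit, 5 members were higher (Mcm3, Pola1, Tyms, Ccne1 and Rbl2, with an adjusted p of 0.026 for Mcm3), 1851 genes were higher and 1674 lower. The members' median log2 fold change was −0.03, −0.050 with upper quartile scaling, and −0.052 to 0.016 leaving out 1 library, positive only without shScramble replicate 1.

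Of 572 values of single members under alternatives, 537 kept direction and side of the threshold, and 14 members with a log2 fold change of at most 0.10 in size changed sign somewhere. Orc2 was 0.0034 with no filter, and with upper quartile scaling Orc6 was −0.0055 and Pcna −0.0051. Leaving out 1 library, log2 fold changes ran from −0.064 to 0.059 for Orc2, −0.023 to 0.24 for Orc5, −0.093 to 0.11 for Orc6, −0.21 to 0.027 for Cdc6, −0.038 to 0.12 for Cdt1, −0.13 to 0.024 for Mcm2, −0.049 to 0.10 for Mcm5, −0.0091 to 0.032 for Pcna, −0.070 to 0.15 for Rfc3, −0.057 to 0.031 for Rfc4, −0.042 to 0.20 for Rfc5, −0.16 to 0.033 for E2f1, −0.069 to 0.17 for E2f2 and −0.20 to 0.017 for E2f3.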
